A study of Rattus norvegicus with 6 samples.

Results

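The neuroendocrine miRNAs described here are miR-7, miR-375, the miR-183 cluster (miR-182, miR-96 and miR-183) and miR-335, taken by name from a table of mature miRNAs, with all arms and copies. The name rule found 8 of 1289 rows, among 584 rows that carry a known rat miRNA name, and they are rno-miR-7a-5p, rno-miR-7a-2-3p, rno-miR-7b, rno-miR-375-3p, rno-miR-182, rno-miR-183-5p, rno-miR-96-5p and rno-miR-335. The species prefix rno is left out below. The table covers 6 libraries of PC12 cells, a line from a rat adrenal pheochromocytoma, which is a tumour of the catecholamine-secreting chromaffin cells. The labels assign 3 libraries to EN and 3 to EC, spell out neither abbreviation, and give no treatment, dose or time. The series title names netrin-1, an axon guidance protein, exosomes of endothelial cells, and peripheral nerve repair. All libraries come from 1 cell line, and the labels do not state that replicates were cultured apart. P-values here therefore reflect only how these samples vary, which could be technical variation.

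MiRNAs are short RNAs that guide Argonaute proteins to messenger RNAs, mainly through their seed, bases 2 to 8 from the 5′ end. MiR-7 is enriched in neurons, pituitary and pancreatic islets, and miR-375 marks islets and other neuroendocrine cells, and is known to restrain insulin release in islets. The miR-183 cluster is one transcript with 3 miRNAs that is best known from sensory cells of the retina, the inner ear and the dorsal root ganglia. MiR-335 is carried in an intron of the imprinted gene Mest in mouse and human.

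RefSeq's rat table, on build GRCr8, held the mature sequence of 7 of the 8 rows, and these are shown because they set which rows can share targets or reads. Capitals mark the seed.

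miR-7a-5p: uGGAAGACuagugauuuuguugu
miR-7b: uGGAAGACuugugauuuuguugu
miR-7a-2-3p: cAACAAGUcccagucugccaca
miR-375-3p: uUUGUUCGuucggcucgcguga
miR-182: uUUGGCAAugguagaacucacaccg
miR-96-5p: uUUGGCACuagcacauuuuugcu
miR-183-5p: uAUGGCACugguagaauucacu

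MiR-7a-5p and miR-7b share their seed and differ over 23 bases by 1 substitution, A10U, with positions counted from the 5′ end and the base of miR-7a-5p given first. The 3 miRNAs of the miR-183 cluster have 3 different seeds. Over their first 8 bases miR-182 and miR-96-5p differ by A8C, with the base of miR-182 first, and miR-96-5p and miR-183-5p differ by U2A, with the base of miR-96-5p first. Among the 530 known rows with a RefSeq mature sequence, none outside the 8 rows shared a full seed with any of the 7.

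Mature miR-7a-5p is identical in both of its rat genes, so its row cannot tell them apart. The genes are Mir7-1, at chr17:6278692-6278788 on the plus strand and overlapping Hnrnpk in RefSeq's gene table, and the gene RefSeq lists as Mir8 with the synonym Mir7a-2, at chr1:142215800-142215894 on the plus strand (GRCr8). Their hairpins are shown to place both arms, with mature arms in capitals. The 3p arms differ, and the one of the chromosome 1 gene has a row here. The name rule found no row for the 3p arm of the chromosome 17 gene.

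Mir7-1 hairpin: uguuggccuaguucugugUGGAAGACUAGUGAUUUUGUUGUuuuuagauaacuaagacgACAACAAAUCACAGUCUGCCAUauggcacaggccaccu
Mir8 (Mir7a-2) hairpin: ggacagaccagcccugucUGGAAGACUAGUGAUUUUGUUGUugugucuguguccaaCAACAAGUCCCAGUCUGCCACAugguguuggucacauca

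The EN libraries held 4521694 to 5371351 miRNA counts and the EC libraries 6153582 to 6554639. Levels are given as counts scaled to the library's miRNA total with factors from the trimmed mean of M-values (TMM), written CPM below. The authors' own RPM values divide by a larger library total, of which miRNA counts made up 25.0 to 26.9 percent in EN and 30.9 to 32.6 percent in EC. The sources used here do not say what else that total holds. Differences were tested with edgeR's quasi-likelihood test over all 628 rows that passed its filter on low counts. By that test 25 rows passed the adjusted threshold of 0.05, 13 higher and 12 lower in EN, and with library totals implied by RPM there were 101, 13 higher and 88 lower.

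These miRNAs were present at very unequal levels. MiR-7a-5p ranked 70th of the 584 known rows by mean level and alone held 95.1 to 95.98 percent of the counts of the 8 rows in EN and 92.5 to 94.1 percent in EC. MiR-335 ranked 205th, miR-182 265th, miR-183-5p 331st, miR-96-5p 343rd, miR-375-3p 345th, miR-7a-2-3p 376th and miR-7b 462nd. The name neuroendocrine comes with the list of names, and levels in PC12 cells alone cannot show whether it holds here. MiR-375 and the miR-183 cluster were at or below 15.3 CPM in each library. MiR-7a-5p stood beside the endothelial miR-126a-3p, which ranked 72nd. The 8 rows together took 0.139 ± 0.0156 percent of miRNA counts in EN and 0.114 ± 0.00763 percent in EC (SD, n = 3 libraries each). Levels of different miRNAs are read counts of sequences of 22 to 25 bases and carry any capture bias of the library kit.

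In the order of levels, miR-7a-5p lay above miR-335 in 6 of 6 libraries with a ratio of means of 26.5, and miR-335 above miR-182 in 6 of 6 with a ratio of 3.41. Neither pair had overlapping ranges. From miR-182 downward each neighbour overlapped the next over the 6 libraries, and miR-183-5p was above miR-96-5p in only 2 of 6.

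**Figure D1:**
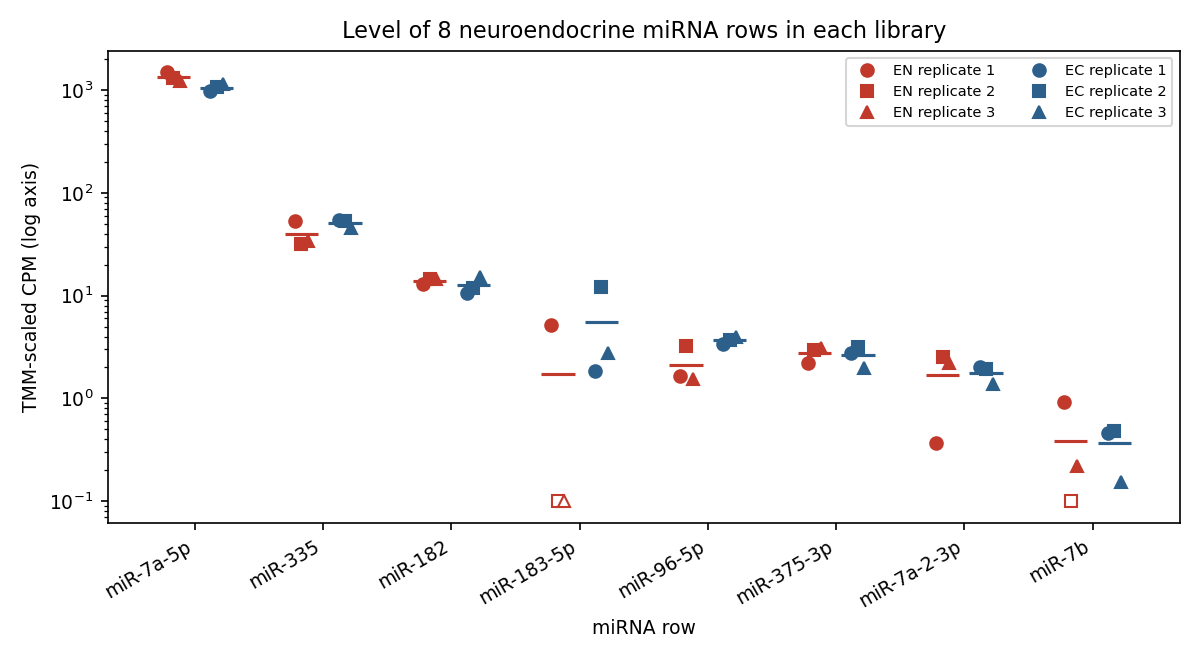
TMM-scaled CPM (log axis) of the 8 rows in each library, with EN left of EC for each row, 1 symbol per replicate and a bar at the group mean. Open symbols drawn at the foot of the plot are counts of 0, found for miR-183-5p in 2 EN libraries and for miR-7b in 1, and miR-7a-5p lies at 974 to 1489 CPM, above all others.

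**Figure D2:**
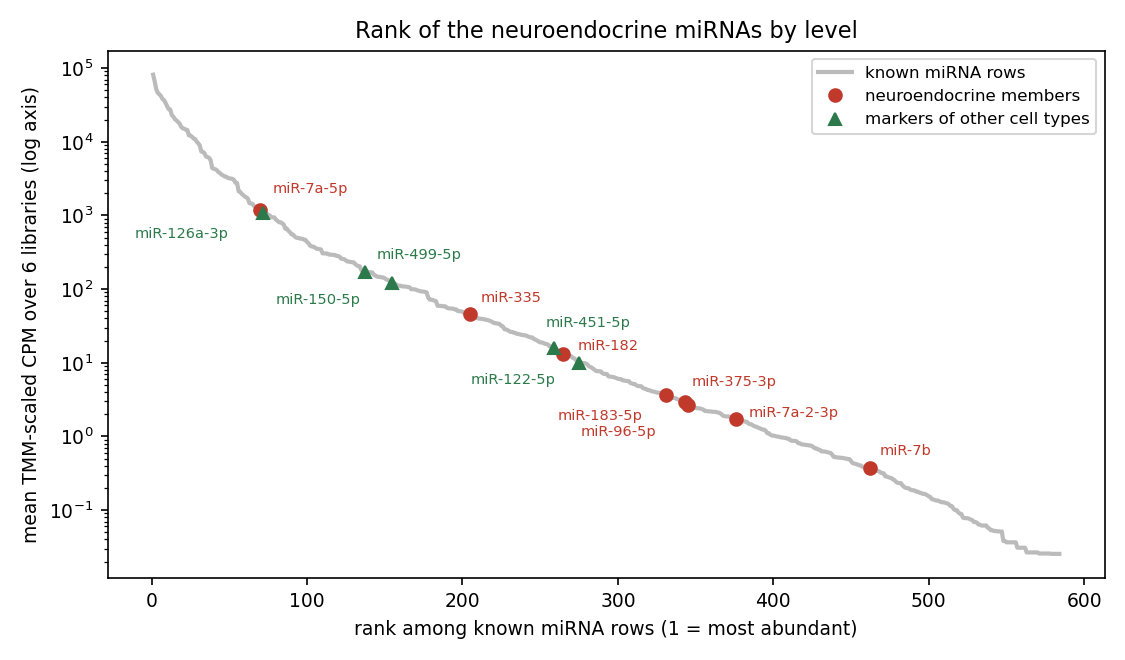
Mean TMM-scaled CPM (log axis) of known miRNA rows against their rank, with the 8 neuroendocrine rows as circles and 5 markers of other cell types as triangles. MiR-7a-5p at rank 70 sits beside the endothelial miR-126a-3p at rank 72, and miR-375-3p at rank 345 lies below the liver miR-122-5p at rank 275.

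None of the 7 neuroendocrine rows tested differed between EN and EC past the adjusted threshold, where 3.98 percent of all rows tested did. At an unadjusted p under 0.05 edgeR gave 1 of 7, miR-7a-5p, and 21.7 percent of all rows tested. Past the adjusted threshold DESeq2 gave 0 of 6, against 14.7 percent of all rows, and limma-voom 0 of 7, against 2.55 percent. The TMM-scaled CPM values of EN and EC did not overlap for 2 of the 7, miR-7a-5p with EN above and miR-96-5p with EN below, and the same was true of 29.6 percent of all rows tested. In such bulk RNA, a miRNA made by fewer cells and one made at a lower level per cell cannot be told apart. MiR-7b failed the filter. MiR-183-5p and miR-96-5p passed it through their EC libraries, since 3 of 3 EC libraries but 1 of 3 EN libraries reached its cut of 1.74 CPM.

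MiR-7a-5p, the guide arm of the family, stood at 1489, 1306 and 1235 CPM in the EN libraries, against 974, 1059 and 1134 CPM in the EC libraries. All 3 EN values lay above all 3 EC values and EN replicate 1 was the highest. The means were 1343 ± 130.7 CPM in EN and 1055 ± 80.2 CPM in EC (SD, n = 3 each). The log2 fold change was 0.35 (SE 0.12, 95% interval 0.065 to 0.63), or 1.27-fold, and did not pass with an adjusted p of 0.141 (edgeR, Benjamini-Hochberg adjustment). Without EN replicate 1 the log2 fold change was 0.26 (adjusted p = 0.227 by edgeR).

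On the authors' RPM scale the miR-7a-5p groups overlapped. Its RPM values were 402, 316 and 316 in the EN libraries and 319.8, 347 and 350.2 in the EC libraries, with means of 344.6 ± 50.01 RPM in EN and 339 ± 16.7 RPM in EC (SD, n = 3 each). With library totals implied by RPM the log2 fold change was 0.024 (adjusted p = 0.926 by edgeR). That scaling moved the median log2 fold change of all rows tested to -0.30, against 0.020 with TMM. Relative to the median of all rows, miR-7a-5p was at 0.33 on both scales.

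**Figure D3:**
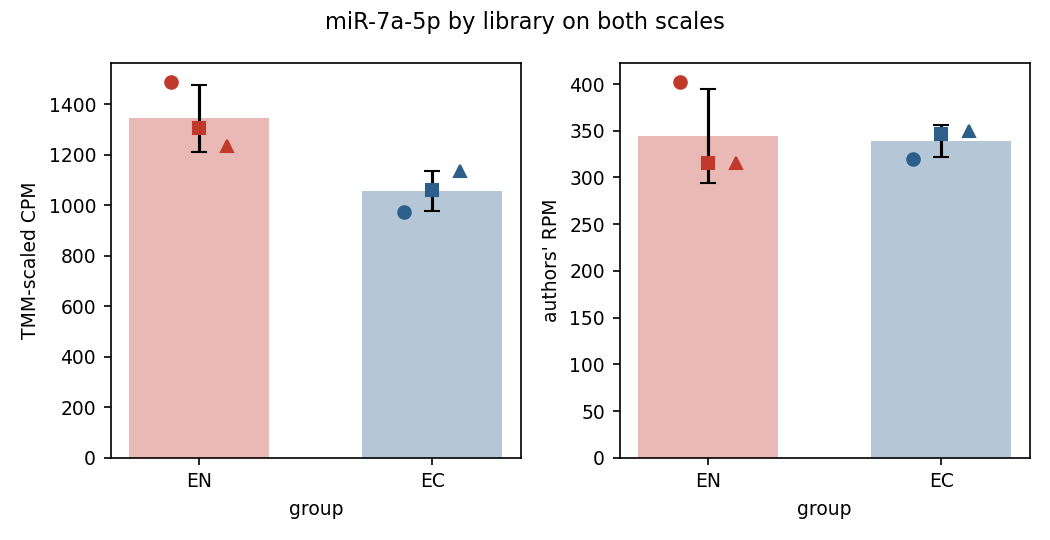
MiR-7a-5p in each library as TMM-scaled CPM (left panel) and as the authors' RPM (right panel), with EN left of EC in each panel, bars at the group mean, error bars of 1 SD and 1 symbol per replicate. The 3 EN libraries lie above the 3 EC libraries in CPM, and in RPM EN replicate 1 at 402 is above the EC libraries while the other EN libraries at 316 are below them.

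The other miR-7 rows were close to the detection limit. The passenger arm miR-7a-2-3p had 2, 11 and 10 counts in the EN libraries and 13, 12 and 9 in the EC libraries, so EN replicate 1 was low and the groups overlapped. Its log2 fold change was -0.095 (SE 0.61, 95% interval -1.53 to 1.34). Summed over libraries, miR-7a-5p outnumbered miR-7a-2-3p 843-fold in EN and 599-fold in EC. The 5p row counts reads of both miR-7a genes and the 3p row those of the chromosome 1 gene only. These are therefore not ratios of the arms of the same hairpin. In EN replicate 1, which had the most miR-7a-5p counts and the fewest of the 3p arm, the ratio was 4022.5. A count of 2 gives that ratio little precision, and the test of arm use needed a mean of 20 counts in both arms, which no pair of these miRNAs reached. MiR-7b had 5, 0 and 1 counts in the EN libraries and 3, 3 and 1 in the EC libraries, and a count of 0 allows up to 0.686 CPM in EN replicate 2.

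MiR-375-3p, the marker of islets and neuroendocrine cells, was detected in every library at a low level. It had 12, 13 and 14 counts in the EN libraries and 18, 20 and 13 in the EC libraries, and the groups overlapped in CPM. The means were 2.75 ± 0.464 CPM in EN and 2.65 ± 0.614 CPM in EC (SD, n = 3 each). Exact Clopper-Pearson 95% intervals, which cover counting error only, ran from 1.15 to 3.88 CPM in EN replicate 1 and from 1.95 to 4.93 CPM in EC replicate 2. The log2 fold change was 0.048 (SE 0.32), and its 95% interval of -0.71 to 0.81 allows folds from 0.610 to 1.75, so smaller differences were not detectable at this depth. The liver miRNA miR-122-5p, at 12.1 ± 3.36 CPM in EN and 7.96 ± 1.90 CPM in EC, was above miR-375-3p in both groups.

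The genes of the miR-183 cluster lie together on the minus strand of chromosome 4 between Nrf1 and Ube2h in RefSeq's gene table. MiR-182, the most abundant of the 3, had 12.95, 14.4 and 14.5 CPM in the EN libraries and 10.7, 11.8 and 15.3 CPM in the EC libraries. The groups overlapped, and EC replicate 3 was the highest of all 6. The log2 fold change was 0.15 (SE 0.20, 95% interval -0.33 to 0.63), and with library totals implied by RPM it was -0.18.

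MiR-96-5p had 9, 14 and 7 counts in the EN libraries and 22, 23 and 26 in the EC libraries. All EN values were below all EC values on the CPM scale and on the RPM scale. The means were 2.13 ± 0.927 CPM in EN and 3.68 ± 0.287 CPM in EC (SD, n = 3 each). The log2 fold change was -0.79 (SE 0.36, 95% interval -1.64 to 0.052) with an adjusted p of 0.253 by edgeR. Without EN replicate 2, the highest of the EN libraries, it was -1.15 (adjusted p = 0.171 by edgeR). Without EN replicate 1 it was -0.64 (adjusted p = 0.386 by edgeR) and without EN replicate 3 -0.61 (adjusted p = 0.527 by edgeR). With library totals implied by RPM it was -1.13 (adjusted p = 0.0606 by edgeR). Relative to the median of all rows, miR-96-5p was at -0.81 with TMM and -0.82 with those totals.

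MiR-183-5p was the most uneven of the 8 rows. It had 28, 0 and 0 counts in the EN libraries and 12, 76 and 18 in the EC libraries. Replicates of the same group thus ranged from 0 to 5.18 CPM in EN and from 1.85 to 12.1 CPM in EC, and a count of 0 allows up to 0.686 CPM in EN replicate 2. The log2 fold change of -1.60 (SE 1.53, 95% interval -5.53 to 2.34) did not pass, and without EC replicate 2 it was -0.28.

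An annotated miRNA gene on the opposite strand covers the same locus. MiR-3553, at chr4:59756105-59756127 on the plus strand, pairs without a gap with all 22 bases of miR-183-5p, at chr4:59756106-59756127 on the minus strand (GRCr8). Both are shown because their rows are set side by side below, with paired bases in capitals.

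miR-183-5p: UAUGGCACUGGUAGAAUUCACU
miR-3553: cAGUGAAUUCUACCAGUGCCAUA

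No other of the 7 rows with a sequence had a known row that paired over 15 or more bases. MiR-3553 had 28, 53 and 50 counts in the EN libraries and 0, 0 and 41 in the EC libraries. Where miR-183-5p stood at 0, in EN replicates 2 and 3, miR-3553 stood at 53 and 50, and where miR-3553 stood at 0, in EC replicates 1 and 2, miR-183-5p stood at 12 and 76. The sum of both rows was 56, 53 and 50 counts in the EN libraries and 12, 76 and 59 in the EC libraries. EC replicate 1 was then the low library, and the other 5 lay between 50 and 76 counts. The summed level was 11.1 ± 0.893 CPM in EN and 7.67 ± 5.27 CPM in EC (SD, n = 3 each).

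Tested as 1 row, a choice made after these values were seen, the sum had a log2 fold change of 0.54 (SE 0.60, 95% interval -0.91 to 1.99) with an adjusted p of 0.666 by edgeR. Its sign is opposite to that of miR-183-5p alone. The sources used here give no strand rule for the counting, so how reads were assigned to the rows of miR-183-5p and miR-3553 is not known. Both rows had 28 counts in EN replicate 1, and whether the same reads entered both was not tested. Beside the summed level, miR-182 stood at 13.9 ± 0.854 CPM in EN and 12.6 ± 2.40 CPM in EC.

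**Figure D4:**
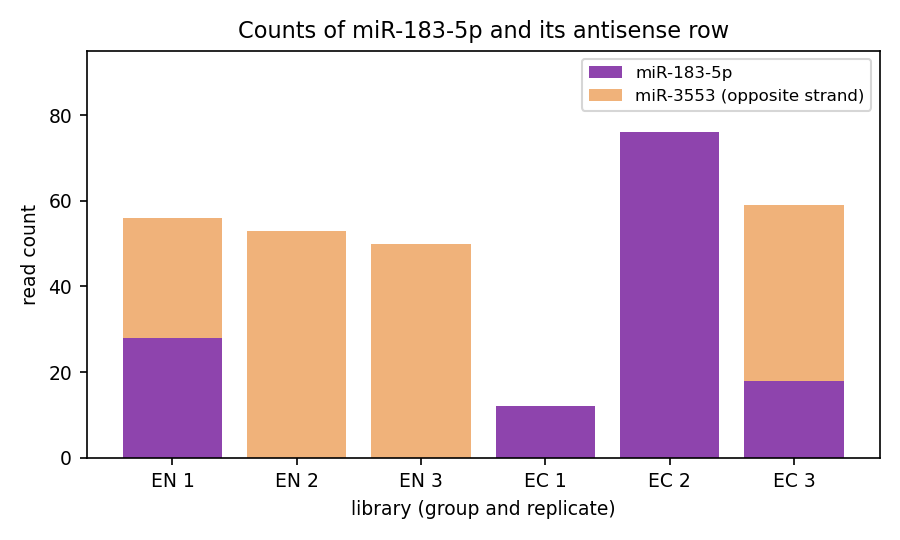
Read counts of miR-183-5p (lower part of each bar) and of miR-3553 on the opposite strand (upper part) in the 3 EN and the 3 EC libraries. Each row is at 0 in 2 libraries, never the same ones, and the stacked total lies at 50 to 76 counts except for EC replicate 1 at 12.

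MiR-335, the second most abundant row, stood at 52.7, 31.6 and 33.7 CPM in the EN libraries and at 54.8, 53.0 and 45.4 CPM in the EC libraries. EN replicate 1 lay within the EC range and the other EN libraries below it. The means were 39.3 ± 11.7 CPM in EN and 51.1 ± 5.03 CPM in EC (SD, n = 3 each). The log2 fold change was -0.38 (SE 0.23, 95% interval -0.91 to 0.16) with an adjusted p of 0.390 by edgeR. Without EN replicate 1 it was -0.65 (adjusted p = 0.0824 by edgeR), and without EN replicate 2 it was -0.20.

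**Figure D5:**
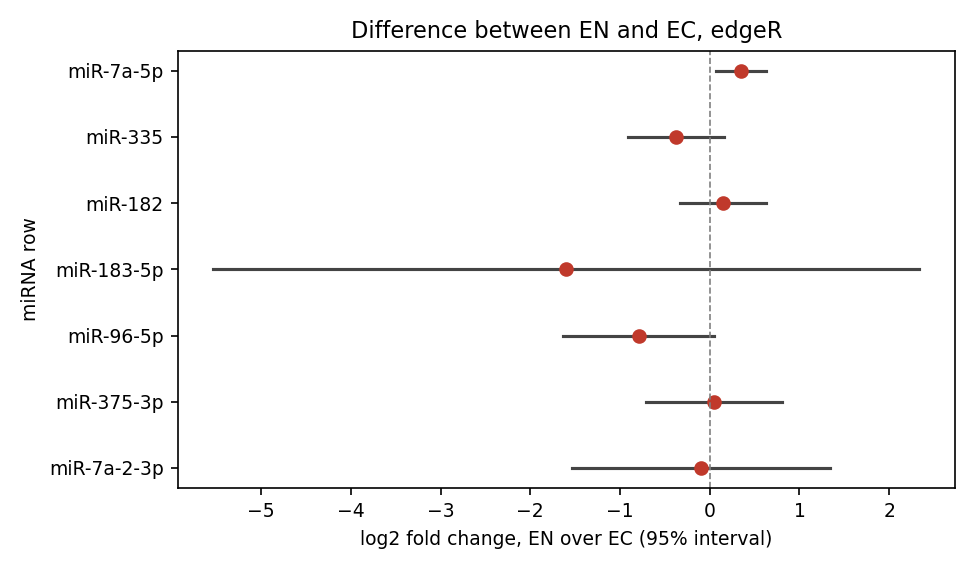
Log2 fold change of EN over EC for the 7 rows tested by edgeR, as points with 95% intervals, and a dashed line at no change. The interval of miR-7a-5p, 0.065 to 0.63, lies above the line without passing the adjusted threshold, and that of miR-183-5p is the widest, at -5.53 to 2.34.

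EN replicate 1 stood apart within its group for several of these rows, with the highest CPM of miR-7a-5p and miR-335 and the lowest of miR-7a-2-3p and miR-182. It was also the deepest EN library, with 5371351 miRNA counts. Whether depth had a part in these values was not tested.

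The rows whose profile over the 6 libraries was most like that of miR-7a-5p were miR-146a-5p, miR-181d-5p and miR-350. Likeness was the root mean square difference of log2 CPM after centring each row on its own mean, over 188 rows of at least 100 CPM. It was 0.0898 for miR-146a-5p, 0.0940 for miR-181d-5p and 0.101 for miR-350, where the median of all rows compared was 0.308. MiR-146a-5p stood at 3487 ± 334.6 CPM in EN and 2994 ± 113.7 CPM in EC (SD, n = 3 each). As with miR-7a-5p, its CPM values in EN were all above those in EC while its RPM values overlapped, and it did not pass (adjusted p = 0.273 by edgeR).

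Other miRNAs described in neuroendocrine, neuronal or adrenal tissue formed a list of 30 names, of which 25 had a row and 16 passed the filter. None of the 16 passed edgeR's adjusted threshold in either direction, and 6 had an unadjusted p under 0.05, 1 higher and 5 lower in EN, where 21.7 percent of all rows had one. DESeq2 called 3 of 17, miR-9a-3p, miR-101a-3p and miR-195-5p, all lower in EN, near its 14.7 percent of all rows, and limma-voom called 0 of 16. The median log2 fold change of the 16 was -0.30, against 0.020 over all rows tested. The 3 most abundant were miR-218a-5p, a miRNA of motor neurons, the brain-enriched miR-129-5p, and miR-9a-5p, which acts in neural progenitors.

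MiR-218a-5p stood at 10753 ± 1625 CPM in EN and 9395 ± 825 CPM in EC (SD, n = 3 each). MiR-129-5p stood at 4105 ± 295.7 CPM in EN and 4132 ± 287.7 CPM in EC, and miR-9a-5p at 1095 ± 137.8 CPM in EN and 1442 ± 210.4 CPM in EC. All 3 were thus near or above miR-7a-5p in level. In contrast, the neuronal miR-124-3p had 2, 1 and 5 counts in the EN libraries and 1, 5 and 2 in the EC libraries, and miR-137-3p had 2, 0 and 0 counts in EN and none in EC. MiR-483-5p, encoded within Igf2 in mouse and human, had 0 counts in EN and 1 in EC.

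Markers of other cell types were measured beside these rows. The 2 endothelial rows, miR-126a-3p and miR-126a-5p, summed to 1086 to 1229 CPM in EN and 1064 to 1144 CPM in EC. MiR-126a-3p alone, at 1103 ± 84.4 CPM in EN and 1049 ± 37.04 CPM in EC (SD, n = 3 each), was close to miR-7a-5p in level. Of 7 blood cell names 6 had a row, and these summed to 156 to 179 CPM in EN and 94.5 to 127 CPM in EC. Most of that sum was miR-150-5p, at 141.2 ± 16.9 CPM in EN and 99.2 ± 18.1 CPM in EC, whose RPM values overlapped between the groups. The other way, miR-142-3p had 7, 7 and 2 counts in EN against 14, 7 and 10 in EC, and miR-142-5p had 0, 2 and 1 in EN against 6, 3 and 7 in EC. Also of the blood list, miR-144-3p had 2, 0 and 0 counts in EN and none in EC. MiR-451-5p had 165, 86 and 90 counts in EN against 33, 59 and 64 in EC. The 5 muscle rows summed to 153 to 193 CPM in EN and 186 to 198 CPM in EC, mostly miR-499-5p, with miR-1-3p at 1 count in all. MiR-122-5p of liver ranged from 8.23 to 14.4 CPM in EN and from 5.96 to 9.74 CPM in EC. The smooth muscle and fibroblast rows miR-143-3p and miR-145-5p summed to 0.925 to 2.29 CPM in EN and 1.12 to 2.63 CPM in EC. Of the 6 marker rows tested, edgeR's adjusted threshold was passed by miR-451-5p of the blood list and by miR-126a-5p. The log2 fold change of miR-451-5p was 1.52 (SE 0.31, adjusted p = 0.0471 by edgeR). That of miR-126a-5p was -0.86 (SE 0.17, adjusted p = 0.0471 by edgeR). The other and more abundant arm, miR-126a-3p, stood at 0.072 (SE 0.11, adjusted p = 0.731 by edgeR). Over all rows tested edgeR called 3.98 percent. Limma-voom called none of these markers, against 2.55 percent of all rows. DESeq2 called 1 blood row, higher in EN, and 1 endothelial and 1 muscle row, both lower in EN, against 14.7 percent of all rows. Among the muscle rows, miR-206-3p had 9, 7 and 5 counts in EN against 187, 9 and 21 in EC. EC replicate 1 thus held most of its counts, and EC replicate 2 lay within the EN range in CPM. MiR-499-5p had a log2 fold change of -0.14 (adjusted p = 0.653 by edgeR). The summed CPM of the blood list, through miR-150-5p and miR-451-5p, was higher in all EN libraries, as was the CPM of miR-7a-5p, and its part in the values of miR-7a-5p was not tested.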

How the data were processed

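The authors deposited read counts per mature miRNA and RPM values for 6 libraries. The authors also deposited group means of RPM and of counts, the second recorded here under the unit expected counts since means need not be whole. Neither was used. HISAT2 2.0.5 and build Rnor 6.0 are named in the submitters' processing notes. The sources used here do not give the counting program, annotation, strand setting or the rule for reads matching several places. RNA was extracted with Trizol and TruSeq libraries (Illumina) were made, per the labels' protocols.

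Counts were filtered by filterByExpr, scaled by TMM and tested (EN over EC, no replicate block) with edgeR 4.0.16 in R 4.3.3, with Benjamini-Hochberg adjustment over 628 rows. Standard errors were derived from the log2 fold change and its F statistic. DESeq2 1.42.0 and limma 3.58.1 (voom and arm ratios) were alternatives. Only the main edgeR fit was tested on simulated counts. Python 3.11.15 was used for tables. All 8 rows of the name rule are named, with the 3 rows most like miR-7a-5p and the 3 most abundant of the other list. Rows and lists were chosen with earlier results of these data known, and miR-3553 after its values were seen.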

Additional observations from a re-analysis of the deposited data

How the results depend on the processing

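None of the 7 rows tested passed in any of the 18 alternative fits that gave it an adjusted p, nor did miR-7b without a filter. Of their 122 log2 fold changes under alternatives, 115 kept their sign. With library totals implied by RPM, miR-182 became -0.18 and miR-375-3p -0.29, where the changed divisor moved the median of all rows to -0.30. Without 1 library, miR-375-3p ranged from -0.11 to 0.22 and miR-7a-2-3p from -0.47 to 0.40. MiR-183-5p became 0.54 with miR-3553 added, and without EN replicate 1, where both remaining EN counts are 0, its fitted value was -7.98, which is no bound. MiR-7a-5p ranged from 0.024 to 0.42, with adjusted p from 0.0572 (without predicted rows) to 0.926 by edgeR, DESeq2 and limma-voom.

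Over all rows, the 25 calls became 101 with library totals implied by RPM, 44 without a filter, 82 with DESeq2, 16 with limma-voom and 2 with a replicate block. Without 1 library they ranged from 2 to 39 (3 without EN replicate 2, 2 without EN replicate 3, 10 without EC replicate 1, 39 without EC replicate 2 and 8 without EC replicate 3). The cause was not tested. The replicate numbers were not taken as pairs because the labels do not say that they mark a shared batch. Correlations of the deviations between same-numbered libraries were 0.091, -0.036 and 0.018. The highest of all, 0.095, was between EN replicate 2 and EC replicate 3. With 3 libraries per group these correlations cannot decide whether libraries were paired. With the block, miR-7a-5p stood at 0.35 (adjusted p = 0.336 by edgeR).

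As a share of library totals implied by RPM, the 8 rows held 0.0361 percent in EN and 0.0364 percent in EC. Arm use of miR-7a could be fitted only without a minimum count, with a difference of 0.65 in log2(5p/3p) and an adjusted p of 0.755 by limma. Its 5p row counts both miR-7a genes and its 3p row only the gene listed as Mir8. Depth limits miR-7b, miR-7a-2-3p, miR-375-3p and miR-96-5p, with under 30 counts in each library.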
